A study of Homo sapiens with 6 samples.

Results

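The 10 genes described here encode the core machinery of RNA interference: the nuclear RNase III DROSHA, the export receptor XPO5, the cytoplasmic RNase III DICER1, the Argonautes AGO1, AGO2, AGO3 and AGO4, and the scaffold proteins TNRC6A, TNRC6B and TNRC6C. They were chosen by name, for their role in small RNA pathways, since the cells of both groups carried siRNA. Each was read by 1 probe set that carries its symbol alone. All 10 were found among the 18417 genes measured. The cells were H441, an established human lung adenocarcinoma line, transfected by lipid either with a Dharmacon SMARTpool siRNA (a pool of siRNAs) against ETS2 or with a scrambled control. Each group has 3 arrays, and each array stands for a transfection of its own. Total RNA was taken 48 h after transfection and hybridised to an Affymetrix human gene array. All 6 arrays come from 1 cell line and from cells that carried siRNA. Cells without siRNA were not analysed here, so every difference is between the ETS2 siRNA and the control siRNA, and what transfection of siRNA itself does to these genes cannot be read from it.

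In the microRNA pathway, DROSHA cuts primary transcripts in the nucleus into hairpins, XPO5 carries the hairpins to the cytoplasm and DICER1 trims them to short duplexes. A synthetic siRNA duplex enters at the last step, where an Argonaute protein takes up 1 strand as a guide. Of the human Argonautes, AGO2 is the one known for slicing a well-matched target RNA, and all of them recruit a TNRC6 (GW182) protein, which brings in the enzymes that remove the poly(A) tail, block translation and remove the cap. RNA interference with a transfected siRNA uses AGO2 above all, while silencing by microRNAs uses each Argonaute together with TNRC6 proteins.

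Values are log2 expression levels made with RMA, and a difference is ETS2 siRNA minus control siRNA on that scale. A gene was called changed at an adjusted p under 0.05 in limma's moderated test across all genes. ETS2, the targeted transcription factor gene, stood at 8.87, 8.70 and 8.78 after ETS2 siRNA, against 9.79, 9.91 and 9.79 with control siRNA. It fell by 1.05, to 0.484 of its control level (SE 0.0565, adjusted p = 0.000254), so the targeted RNA was lower on each array that was labelled as knocked down. Of the 10 markers of epithelium and lung, 9 lay above the background floor of 6.67, a level set on olfactory receptor genes. SCGB1A1, the club cell secretory protein gene, lay below it at 6.46 after ETS2 siRNA and 6.44 with control siRNA. Limma called 1 of the 10, the surfactant gene SFTPB, which fell by 0.36 (adjusted p = 0.0077). An unadjusted p under 0.05 was found for 4 of the 10 (40%), beside 18.5% of all genes and 23.4% of genes above the floor: SFTPB, NAPSA (-0.13), NKX2-1 (-0.11) and KRT19 (0.11). The part of these shifts in the results below was not tested. Of 5 measured leukocyte markers, 3 lay above the floor, with CD68 highest at 11.46 after ETS2 siRNA and 11.29 with control siRNA. PTPRC was below it at 4.72 after ETS2 siRNA and 4.74 with control siRNA. Limma called 0 of 5 leukocyte markers, with 2 (40%) at an unadjusted p under 0.05, CD68 (0.17) and ITGAM (-0.16). It called 0 of 8 fibroblast and endothelial markers, with 1 (12.5%) at an unadjusted p under 0.05, KDR (-0.18), and COL1A1 next at 0.10. The p-values measure the spread between these transfections of 1 line.

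Of the 10 genes of the machinery, 1 was called, TNRC6C, which rose by 0.23 after ETS2 siRNA, a fold of 1.18. Over all genes 4.91% were called, 2.28% higher and 2.63% lower. Among genes above the floor, where all 10 lay, 6.79% were called. A single call among 10 genes is too few to set the machinery apart from that background. The other 9 genes were not called. AGO4 had a difference of 0.25 and AGO1 one of -0.17, with adjusted p-values of 0.115 and 0.110 in limma, and the remaining 7 genes had differences between -0.040 and 0.10. The arrays of the 2 groups did not overlap for 4 of the 10 genes, TNRC6C, AGO4, AGO1 and DROSHA, against 23.1% of all genes and 29.2% of genes above the floor. The median difference of the 10 genes was 0.0083 and that of all genes 0.0033. The median size of the difference without its sign was 0.038 for the 10 genes and 0.053 for all genes. In whole cells, a lower or higher share of cells that express a gene and a change in RNA per cell cannot be told apart.

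**Figure D1:**
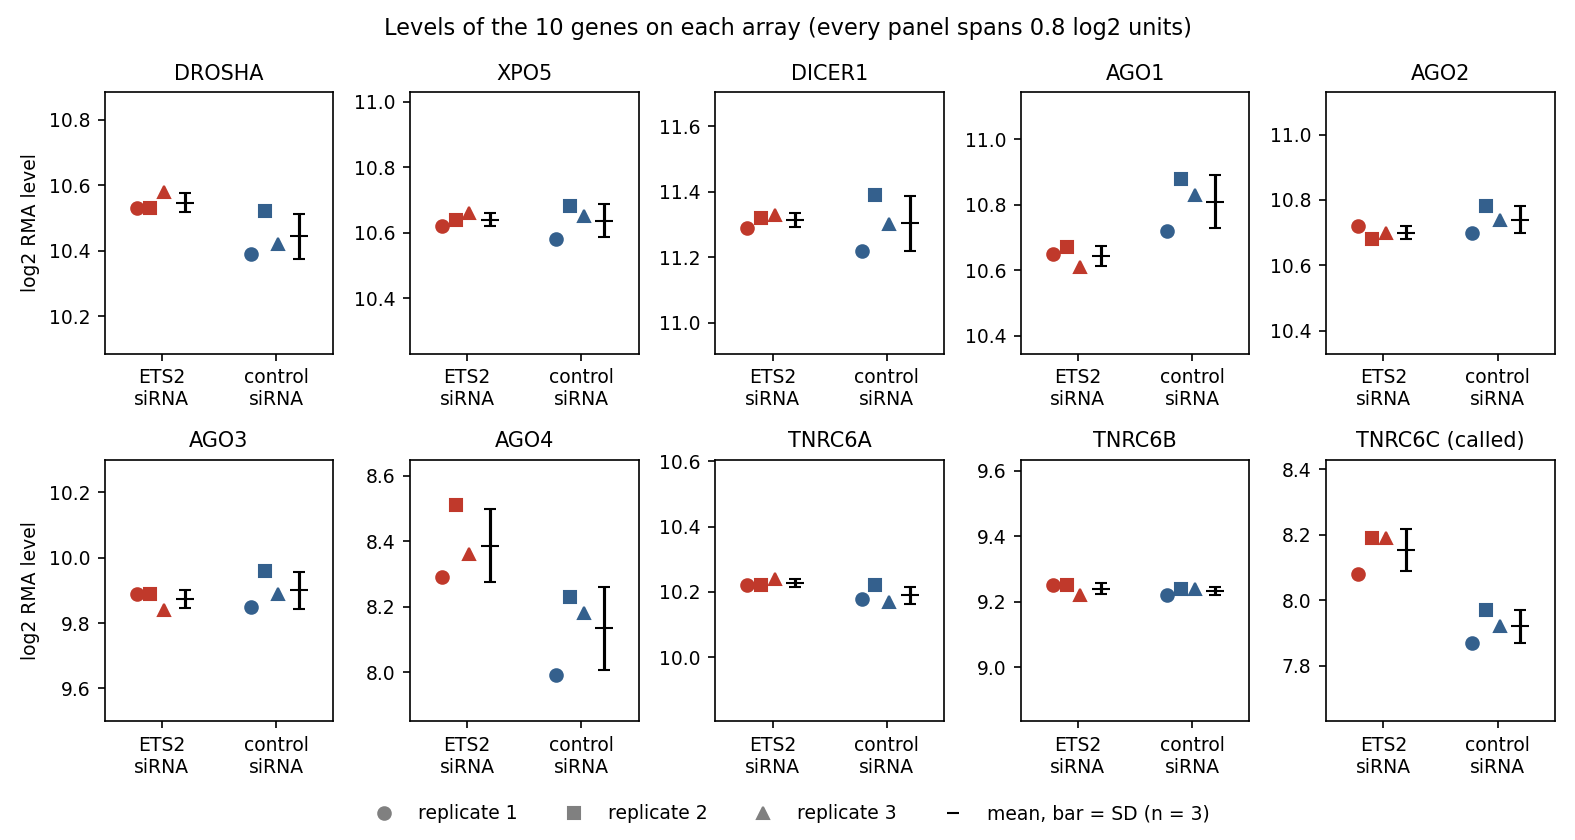
Log2 RMA level of each of the 10 genes on the 6 arrays, ETS2 siRNA left and control siRNA right, with the mean and SD over 3 arrays beside the points. The arrays of the groups are apart for DROSHA, AGO1, AGO4 and TNRC6C, and the points of TNRC6B lie within 9.22 to 9.25 in both groups.

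DROSHA, the nuclear enzyme, read 10.53, 10.53 and 10.58 after ETS2 siRNA, against 10.39, 10.52 and 10.42 with control siRNA. The 2 lowest ETS2 siRNA arrays were 0.01 above the highest control array, so the groups were separate by no more than the rounding of the values. The difference was 0.10 (SE 0.0460, 95% interval -0.0025 to 0.21, adjusted p = 0.283 in limma), and DROSHA was not called. DGCR8, the RNA-binding partner of DROSHA, whose own mRNA the DROSHA complex is known to cut, stood at 9.58 after ETS2 siRNA and 9.60 with control siRNA (difference -0.023, adjusted p = 0.848 in limma).

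XPO5, which exports hairpins together with the GTPase RAN, read 10.62, 10.64 and 10.66 after ETS2 siRNA and 10.58, 10.68 and 10.65 with control siRNA. The ETS2 siRNA arrays lay inside the range of the control arrays. XPO5 differed by 0.0033, with a 95% interval of -0.092 to 0.099, folds of 0.938 to 1.07. DICER1 read 11.29, 11.32 and 11.33 after ETS2 siRNA and 11.22, 11.39 and 11.30 with control siRNA, again inside the control range. It differed by 0.01, with a 95% interval of -0.10 to 0.12, folds of 0.930 to 1.09, so that a shift of DICER1 mRNA beyond those folds lies outside the interval, while a smaller one was not detectable with 6 arrays.

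None of the 4 Argonaute genes was called, and their differences ran from -0.17 for AGO1 to 0.25 for AGO4. AGO1 read 10.65, 10.67 and 10.61 after ETS2 siRNA, against 10.72, 10.88 and 10.83 with control siRNA. Every ETS2 siRNA array lay below every control array, with means of 10.64 ± 0.03 and 10.81 ± 0.08 (SD, n = 3 each). The difference was -0.17, with an SE of 0.0497 and a 95% interval of -0.28 to -0.052, and the unadjusted p of 0.0098 in limma became 0.110 after adjustment over all genes. AGO4 read 8.29, 8.51 and 8.36 after ETS2 siRNA, against 7.99, 8.23 and 8.18 with control siRNA. Here every ETS2 siRNA array lay above every control array, with means of 8.39 ± 0.11 and 8.13 ± 0.13 (SD, n = 3 each). The difference of 0.25 was the largest of the 10 genes and also the least precise, with an SE of 0.0770 and a 95% interval from 0.076 to 0.43 (adjusted p = 0.115 in limma).

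AGO2, the slicing Argonaute, read 10.72, 10.68 and 10.70 after ETS2 siRNA and 10.70, 10.78 and 10.74 with control siRNA. The groups overlapped, and AGO2 differed by -0.040, with a 95% interval of -0.13 to 0.050, folds of 0.914 to 1.04. AGO3 read 9.89, 9.89 and 9.84 after ETS2 siRNA and 9.85, 9.96 and 9.89 with control siRNA, also with overlap. Its difference was -0.027 (95% interval -0.13 to 0.073, adjusted p = 0.825 in limma). In the RefSeq gene order of chromosome 1, AGO4, AGO1 and AGO3 follow each other, with 1 pseudogene, CFAP97P1, between AGO1 and AGO3. These neighbours had differences of 0.25, -0.17 and -0.027 in that order, none of them called. AGO2 lies apart on chromosome 8.

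Of the 3 TNRC6 scaffolds, TNRC6C was called and the others were not. TNRC6C read 8.08, 8.19 and 8.19 after ETS2 siRNA, against 7.87, 7.97 and 7.92 with control siRNA. Every ETS2 siRNA array lay above every control array, and the means were 8.15 ± 0.06 and 7.92 ± 0.05 (SD, n = 3 each). The rise of 0.23 had an SE of 0.0479 and a 95% interval from 0.12 to 0.34 (adjusted p = 0.0326 in limma, rank 666 of all genes by p). The call rests on all but 2 of the arrays: it was lost without ETS2 siRNA replicate 2 or 3 or control replicate 1 or 3, with adjusted p-values of 0.129, 0.137, 0.105 and 0.102, while the difference stayed between 0.21 and 0.27 with any 1 array left out. TNRC6A read 10.22, 10.22 and 10.24 after ETS2 siRNA and 10.18, 10.22 and 10.17 with control siRNA, which met at 10.22. Its difference was 0.037 (95% interval -0.048 to 0.12, adjusted p = 0.685 in limma). TNRC6B read 9.25, 9.25 and 9.22 after ETS2 siRNA and 9.22, 9.24 and 9.24 with control siRNA. It differed by 0.0067, with a 95% interval of -0.076 to 0.089, and its SDs of 0.02 and 0.01 were among the smallest of the 10 genes.

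**Figure D2:**
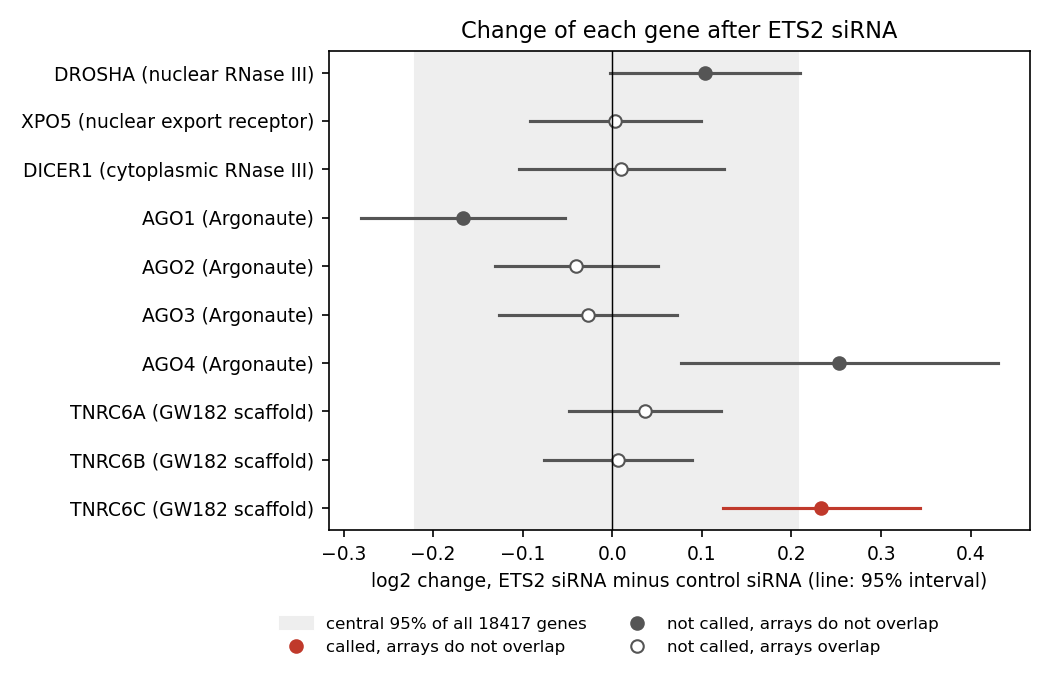
Log2 change of each gene (ETS2 siRNA minus control siRNA, horizontal axis) with its 95% interval, in the order of the pathway from DROSHA to the TNRC6 scaffolds. The grey band holds the central 95% of changes over all genes, from -0.22 to 0.21, and the points of AGO4 (0.25) and TNRC6C (0.23) lie beyond it.

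Whether paralogues differed in their change was tested on the log2 difference of 2 genes on each array, over 6 Argonaute pairs and 3 TNRC6 pairs. With 3 arrays a group, the lowest two-sided p open to an exact permutation test is 0.1. That smallest value was reached by 7 of the 9 pairs, whose groups did not overlap, and became 0.129 after Benjamini-Hochberg adjustment over the 9 exact tests. No pair could pass a threshold of 0.05 with so few arrays, so the test cannot decide whether paralogues differed in their change. Each of the 7 pairs holds AGO1, AGO4 or TNRC6C, whose own groups did not overlap, so the pairs are not separate evidence. The share of other gene pairs without overlap was not counted. AGO1 and AGO4 stood farthest apart. Centred on its mean over 6 arrays, the log2 difference AGO1 minus AGO4 was -0.11, -0.31 and -0.22 after ETS2 siRNA, against 0.26, 0.18 and 0.18 with control siRNA, a shift of -0.42. AGO1 minus AGO3 was the tightest pair after ETS2 siRNA, at -0.080, -0.060 and -0.070, against 0.030, 0.080 and 0.10 with control siRNA, a shift of -0.14. TNRC6C minus TNRC6A shifted by 0.20 and TNRC6C minus TNRC6B by 0.23, both without overlap of the groups. For AGO2 minus AGO3 the shift was -0.013 (exact p = 0.7) and for TNRC6B minus TNRC6A -0.030 (exact p = 0.4), and both pairs overlapped. Levels of different genes were not compared, since each probe set has its own brightness.

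**Figure D3:**
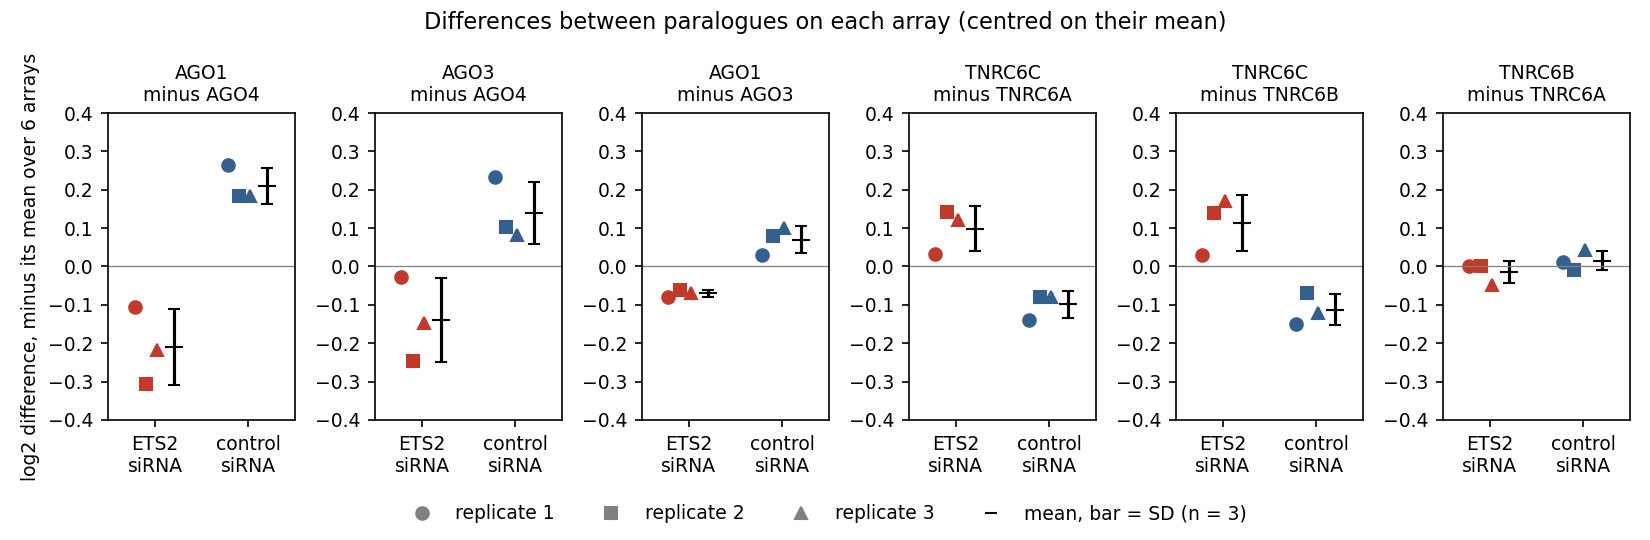
Log2 difference between 2 paralogues on each array, centred on its mean over the 6 arrays (vertical axis), with ETS2 siRNA left and control siRNA right and the mean and SD over 3 arrays beside the points. AGO1 minus AGO4 runs from -0.31 to -0.11 after ETS2 siRNA and from 0.18 to 0.26 with control siRNA, while TNRC6B minus TNRC6A overlaps.

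The spread within the groups was itself shared by the genes. Control replicate 1 was the lowest control array for 9 of the 10 genes, all but TNRC6A, and control replicate 2 the highest for 9 of the 10, all but TNRC6B. Over all genes above the floor, control replicate 1 was lowest for 39.3% and control replicate 2 highest for 45.6%. Averaged over the 10 genes, the arrays deviated from the gene means by 0.0023, 0.038 and 0.021 after ETS2 siRNA, and by -0.080, 0.035 and -0.018 with control siRNA. The median deviation over all genes was at most 0.0083 on any array, which is small beside the shift of control replicate 1 and larger than that of ETS2 siRNA replicate 1. The SD was smaller after ETS2 siRNA than with control siRNA for 8 of the 10 genes, all but TNRC6B and TNRC6C, against 58.6% of genes above the floor. With control replicate 1 left out, the difference of TNRC6C was 0.21 (adjusted p = 0.105 in limma), that of AGO4 0.18 and that of AGO1 -0.21, and with control replicate 2 left out they were 0.26, 0.30 and -0.13.

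**Figure D4:**
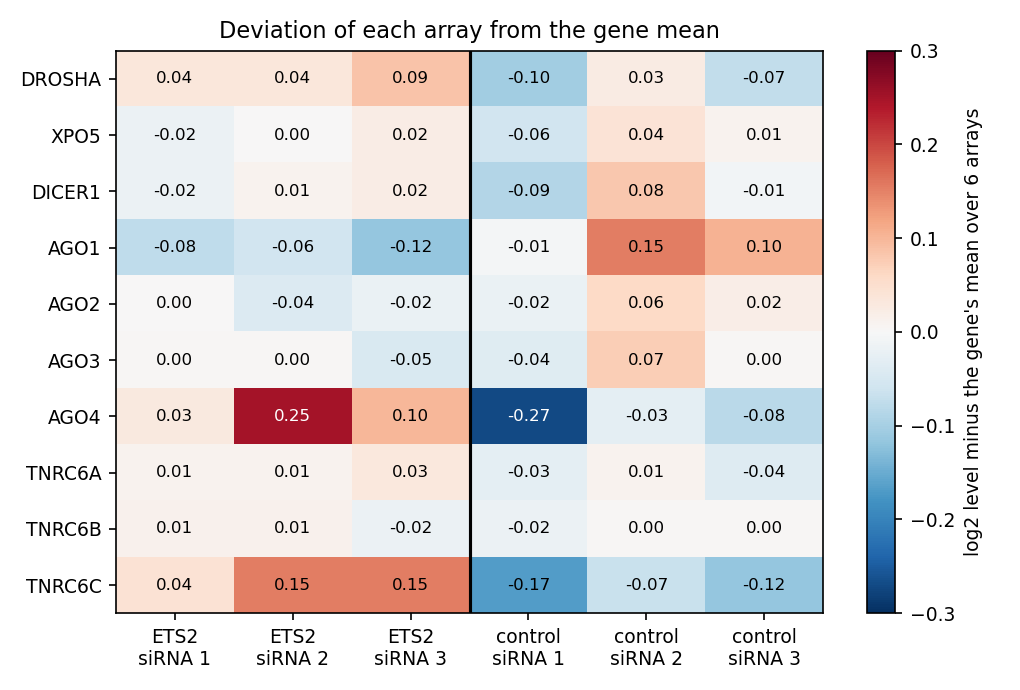
Log2 level of each gene on each array minus the gene's mean over the 6 arrays, ETS2 siRNA left of the line and control siRNA right. The column of control replicate 1 is negative for all 10 genes, lowest for AGO4 at -0.27, and the rows of TNRC6A and TNRC6B are the palest.

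The promoters of TNRC6C, AGO4, AGO1 and DROSHA are shown because these are the genes whose groups did not overlap, and that of XPO5 because it held the most matches to an ETS-type motif. They are the 250 bases before the annotated start in RefSeq's GRCh38.p14, taken for TNRC6C from the start with the highest GC content of its 4. Matches to CGGAAG or CGGAAGT on either strand are in capitals, and other GGAA letters are not marked.
TNRC6C (chr17:77958453-77958702, plus strand): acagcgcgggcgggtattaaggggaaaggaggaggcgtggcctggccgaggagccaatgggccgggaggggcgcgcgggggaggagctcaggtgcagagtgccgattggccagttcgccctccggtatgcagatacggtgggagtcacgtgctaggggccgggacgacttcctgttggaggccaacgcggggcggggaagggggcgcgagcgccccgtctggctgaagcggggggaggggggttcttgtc
AGO4 (chr1:35807766-35808015, plus strand): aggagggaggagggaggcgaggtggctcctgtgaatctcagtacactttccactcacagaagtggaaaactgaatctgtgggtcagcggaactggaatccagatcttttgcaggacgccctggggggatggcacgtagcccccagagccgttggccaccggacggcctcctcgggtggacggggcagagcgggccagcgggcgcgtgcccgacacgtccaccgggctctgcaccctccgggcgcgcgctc
AGO1 (chr1:35882959-35883208, plus strand): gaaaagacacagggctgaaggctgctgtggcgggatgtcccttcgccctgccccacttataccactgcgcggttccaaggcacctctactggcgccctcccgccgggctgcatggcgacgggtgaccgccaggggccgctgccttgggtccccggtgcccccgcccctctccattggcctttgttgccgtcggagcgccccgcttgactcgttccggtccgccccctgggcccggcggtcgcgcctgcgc
DROSHA (chr5:31532094-31532343, minus strand): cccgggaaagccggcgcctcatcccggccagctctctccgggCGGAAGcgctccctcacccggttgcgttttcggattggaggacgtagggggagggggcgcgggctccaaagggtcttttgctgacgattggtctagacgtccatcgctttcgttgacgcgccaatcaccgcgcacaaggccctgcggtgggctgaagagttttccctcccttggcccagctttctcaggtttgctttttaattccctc
XPO5 (chr6:43576039-43576288, minus strand): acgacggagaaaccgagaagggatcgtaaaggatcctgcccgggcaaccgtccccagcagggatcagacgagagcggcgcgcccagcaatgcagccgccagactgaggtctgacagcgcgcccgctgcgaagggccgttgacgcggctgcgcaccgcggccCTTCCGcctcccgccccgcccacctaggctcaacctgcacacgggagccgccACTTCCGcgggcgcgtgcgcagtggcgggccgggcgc

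ETS factors, ETS2 among them, bind DNA around a GGAA core. The letters CGGAAG, searched on both strands, occur in 16.5% of all 35116 promoter windows of this length, and the longer CGGAAGT, which contains them, in 5.69%. RefSeq windows were at hand for 9 of the 10 genes, all but AGO2, with 16 starts in all. CGGAAG was found in 6 windows, 1 each of 6 genes: DROSHA, 208 bases before the start, XPO5 at 89 and 36, DICER1 at 107 in 1 of its 5 windows, AGO3 at 20, TNRC6A at 27 and TNRC6B at 113. The longer CGGAAGT was found in XPO5 and DICER1, where it overlaps the shorter match. In the windows of AGO1 and AGO4 and in the 4 windows of TNRC6C, these letters were absent. Other sequences around GGAA were not searched or marked. GGAA, or TTCC on the other strand, does stand in the printed windows of these genes. Of the 4 genes whose groups did not overlap, DROSHA held a match, and 5 of the 6 genes with one had overlapping groups. Whether matches go with differences was not tested, and these few genes were split by the same values. A match of letters is not evidence of binding, and its absence says nothing about binding at other sequences in the 250 bases or elsewhere.

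By the Pearson correlation of log2 levels over the 6 arrays, the genes above the floor with the pattern most like that of TNRC6C were PPP1R35 (r = 0.999), KIAA1191 (r = 0.997) and MRPL52 (r = 0.997). Their differences were 0.097, 0.11 and 0.17, smaller than that of TNRC6C, and none was called (adjusted p = 0.205, 0.151 and 0.0694 in limma). With 6 points in 2 groups these values describe the arrays only.

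The genes that act with this machinery were followed in 7 lists of 114 genes, of which 109 were measured. Of those, 6 were called (5.50%, beside 4.91% over all genes and 6.79% of genes above the floor), 5 higher and 1 lower. Above the floor lay 89 of the 109, and the median difference was 0.01. Among the proteins that act on Argonaute, 2 of 11 measured genes were called, both higher, and 8 of the 11 differences were positive. All 11 lay above the floor, so 18.2% were called beside 6.79% of genes above the floor. That share rests on 2 genes, too few to set this list apart from the background. The groups did not overlap for 6 of the 11 (54.5%, beside 29.2% of genes above the floor). ANKRD52, a subunit of the phosphatase complex that removes phosphate from AGO2, read 10.20, 10.20 and 10.25 after ETS2 siRNA and 9.97 on each control array, a rise of 0.25 (SE 0.0368, adjusted p = 0.0106 in limma). LIMD1, a LIM-domain adaptor that links Argonaute to the cap, rose by 0.26, with 9.22, 9.26 and 9.18 after ETS2 siRNA against 8.92, 9.05 and 8.91 with control siRNA (adjusted p = 0.0255). PPP6C, the catalytic partner of ANKRD52, differed by 0.01 and CSNK1A1, the kinase that phosphorylates AGO2 on target RNA, by -0.14 (adjusted p = 0.160), and neither was called.

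Among 14 measured partners of DICER1 and factors of Argonaute loading, 1 was called (7.14%, beside 4.91% of all genes and 6.79% of genes above the floor). The called gene was higher. Of the 14 differences 10 were positive, beside 9499 of 18417 over all genes. TSN, which encodes translin, a subunit of the nuclease complex that clears the passenger strand, stood at 11.07, 11.06 and 11.07 after ETS2 siRNA, against 10.82, 10.90 and 10.83 with control siRNA. The rise was 0.22 (SE 0.0392, adjusted p = 0.0204 in limma). The DICER1 partners TARBP2 (-0.040) and PRKRA (0.033) and the loading chaperones HSP90AA1 (-0.0033), HSP90AB1 (0.01) and HSPA8 (0.040) were not called. Of 9 measured partners of DROSHA 0 were called by limma. An unadjusted p under 0.05 was found for 3 of the 9 (33.3%, beside 18.5% of all genes and 23.4% of genes above the floor): KHSRP, which binds the loops of some hairpins (0.12, adjusted p = 0.122), SAFB2 (0.11, adjusted p = 0.157) and the helicase gene DDX17 (-0.10, adjusted p = 0.188).

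Downstream of the TNRC6 proteins, 2 of 29 silencing effectors were called, in opposite directions (6.9%, beside 4.91% of all genes and 6.79% of genes above the floor). XRN1, the exonuclease that degrades decapped mRNA, read 9.48, 9.49 and 9.44 after ETS2 siRNA and 9.66, 9.78 and 9.66 with control siRNA, and fell by 0.23 (SE 0.0461, adjusted p = 0.0302 in limma). MOV10, a helicase that travels with Argonaute, read 10.60, 10.57 and 10.58 after ETS2 siRNA and 10.35, 10.45 and 10.39 with control siRNA, and rose by 0.19 (adjusted p = 0.0415). The scaffold of the main deadenylase, CNOT1, differed by -0.027, the helicase DDX6 by 0.01 and the poly(A)-binding protein gene PABPC1 by -0.0033, with overlapping groups in each. All 29 lay above the floor. The groups did not overlap for 10 of the 29 (34.5%, beside 23.1% of all genes and 29.2% of genes above the floor). An unadjusted p under 0.05 was found for 6 of the 29 (20.7%, beside 18.5% of all genes and 23.4% of genes above the floor). Besides XRN1 and MOV10 the 6 were CNOT11, a deadenylase subunit (0.15, adjusted p = 0.0596 in limma), the decapping enzyme gene DCP2 (-0.13, adjusted p = 0.0911), its cofactor DCP1A (0.13, adjusted p = 0.1005) and the decapping scaffold EDC4 (-0.11, adjusted p = 0.159). The median over the 29 genes was -0.01. The median over the 13 genes of small RNA turnover was 0.027, with 0 called by limma, 1 at an unadjusted p under 0.05, and ERI1 (0.16, adjusted p = 0.165) and ZSWIM8 (0.080) at the smallest p-values.

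In the germline PIWI branch of the Argonaute family, 2 of 12 genes lay above the floor, TDRD1 and PLD6. Limma called 0 of the 12, and 0 had an unadjusted p under 0.05; TDRD9 (0.087) and PIWIL3 (-0.060) came closest, both below the floor. PIWIL1 to PIWIL4 were all below the floor in both groups, with group means between 4.93 and 5.85. Foreign double-stranded RNA is read by another set of proteins. Of 21 measured sensors and interferon-induced genes 1 was called (4.76%, beside 4.91% of all genes). IFIH1, which encodes the sensor MDA5, rose by 0.26, with 9.16, 9.17 and 9.16 after ETS2 siRNA and 8.82, 8.90 and 8.98 with control siRNA (adjusted p = 0.0204 in limma). An unadjusted p under 0.05 was found for 3 of the 21 (14.3%, beside 18.5% of all genes), IFIH1 and the uncalled IFIT2 and TLR3, both with group means below the floor and without overlap of the groups. IFIT2, an interferon-induced gene, had the largest difference of the list, with 6.41, 6.46 and 6.82 after ETS2 siRNA against 6.06, 6.17 and 6.33 with control siRNA (0.38, adjusted p = 0.108 in limma). TLR3, an endosomal sensor of double-stranded RNA, differed by -0.20 (adjusted p = 0.173). RIGI (0.040), EIF2AK2 (0.083), ISG15 (0.037) and IFIT1 (0.01) were not called either. Leaving out 1 array ended the call of ANKRD52 only without ETS2 siRNA replicate 3 (adjusted p = 0.0607). The other 5 genes lost it without any 1 of the ETS2 siRNA arrays or control replicate 1, and LIMD1, TSN, XRN1 and MOV10 also without control replicate 3, with adjusted p-values up to 0.14.

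**Figure D5:**
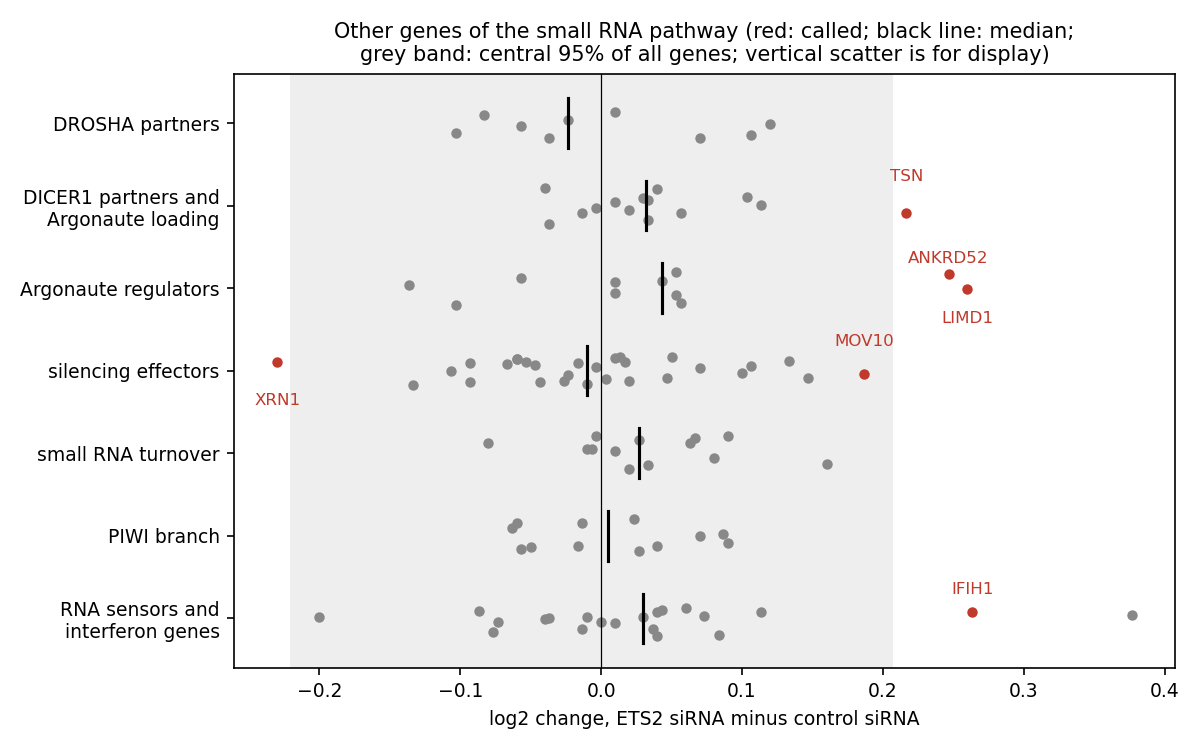
Log2 change (ETS2 siRNA minus control siRNA, horizontal axis) of the other genes of the small RNA pathway, 1 point per gene in 7 lists, with called genes named in red, the list median as a black line and the central 95% of all genes in grey. The 6 called genes run from XRN1 at -0.23 to IFIH1 at 0.26, and the list medians lie between -0.023 and 0.043.

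Transcripts that feed the machinery were read by 173 microRNA genes on the array, of which 51 lay above the floor. Limma called 0 of them, 13 had an unadjusted p under 0.05 (7.51%, beside 18.5% of all genes), and 2 were called with array weights. Of all genes 70.8% lay above the floor, so these 2 shares come from genes at unlike levels. Among genes above the floor the share was 23.4%. The median difference of the 173 microRNA genes was -0.01. A probe set on such an array reads RNA that covers the precursor and is no measure of the mature molecule. The let-7 family, which is known to repress DICER1 through its mRNA and is itself controlled by LIN28 proteins, was picked after its values were seen and is therefore described without a test. It had 9 genes on the array, 3 of them above the floor. Of its differences 6 were negative and 3 positive, beside 96 negative and 77 positive of all 173 microRNA genes. All 9 share 1 seed, GAGGUAG, bases 2 to 8, in capitals in the mature sequences of the 3 genes above the floor, from RefSeq's GRCh38.p14.
hsa-let-7a-5p from MIRLET7A2 (chr11:122146568-122146589, minus strand): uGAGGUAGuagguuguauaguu
hsa-let-7d-5p from MIRLET7D (chr9:94178841-94178862, plus strand): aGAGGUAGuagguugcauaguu
hsa-let-7i-5p from MIRLET7I (chr12:62603691-62603712, plus strand): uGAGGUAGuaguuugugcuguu

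MIRLET7A2 read 8.45, 8.54 and 8.42 after ETS2 siRNA and 8.59, 8.58 and 8.56 with control siRNA, a difference of -0.11 without overlap. MIRLET7D read 7.30, 7.31 and 7.16 after ETS2 siRNA and 7.42, 7.50 and 7.34 with control siRNA, a difference of -0.16 without overlap. MIRLET7I read 7.97, 7.99 and 8.16 after ETS2 siRNA and 8.08, 7.97 and 8.10 with control siRNA, a difference of -0.01 with overlap. None of these let-7 genes was called. Groups without overlap were found for 29.2% of genes above the floor and 23.1% of all genes. LIN28A and LIN28B were below the floor in both groups, with differences of 0.027 and 0.033. MIRLET7A1, which encodes the same let-7a as MIRLET7A2, differed by -0.017 at levels below the floor.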

How the data were processed

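The authors deposited log2 expression levels per probe set, 1 column per array and with 2 decimals. The submitters' processing notes name RMA, with no settings or version. Its genome build is likewise not given in the sources used here. Since RMA equalises the arrays' distributions, a change common to every gene could not be seen. Levels ran from 3.21 to 14.51. Of 33297 probe sets, 19460 had exactly 1 symbol in the platform annotation, and 19429 of these matched a gene record of RefSeq (GRCh38.p14, names only). The probe set with the highest mean over 6 arrays stood for each of 18417 genes.

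Differences were fitted with limma 3.58.1 in R 4.3.3 (lmFit, eBayes without trend, two-sided, Benjamini-Hochberg over all genes). The floor of 6.67 is the 95th percentile of 341 olfactory receptor genes. No gene was filtered out. Levels carry the SD over 3 arrays, and differences carry 95% intervals from limma's moderated standard errors. Precision is limited by having 6 arrays. The procedure was tested on simulated data, but how often it calls changes as small as those described above is not given here. Alternatives were a replicate block, 3 rescalings, 2 filters on dim genes, averaging the probe sets of a gene, 2 variance models, array weights and each array left out.

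Named are the 10 genes, ETS2, up to 4 called genes per list or, with none called, the 2 with the smallest p, and the 3 genes most like a called gene (correlation over 6 arrays); genes named for their role are values outside this rule. The genes and lists were chosen with earlier results of these data known. The labels gave no batch, and whether same-numbered arrays are pairs was not settled.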

Additional observations from a re-analysis of the deposited data

How the results depend on the processing

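Over 16 alternatives, TNRC6C, AGO4, AGO1, DROSHA, AGO2 and TNRC6A kept the direction of their differences in each one that gave a value, and TNRC6C was called in 11 of 15; the filter on genes above the median left it out. AGO4 was called in 3 of 16 (0.25 with the replicate block, adjusted p = 0.0417 in limma) and AGO1 in 2 of 16. The count of called genes among the 10 became 2 with the replicate block, 2 among genes above the median and 3 with an intensity trend. Same-numbered arrays deviated together with r = 0.177, 0.181 and 0.0352, all positive and small. ETS2 siRNA replicates 1 and 2 correlated best with the control of their own number, and replicate 3 with control replicate 2 (0.0409). The labels state no pairing, so the main fit used none, but these values do not settle whether the numbers are pairs. With the block 604 genes were called over all against 904. Over all genes the count became 1397 among genes above the floor, 1963 among genes above the median, 1963 with an intensity trend and 1480 with array weights. The called genes of the 7 lists became 14 among genes above the median and 12 with an intensity trend, and the microRNA genes called became 2 with array weights. With 1 array left out, the counts ran from 213 to 735 over all genes, 0 to 1 of the 10 genes, 0 to 6 in the lists and 0 to 1 of the microRNA genes. Signs turned only for differences near 0 when 1 array was left out: XPO5 from -0.025 to 0.025 (-0.0067 without ETS2 siRNA replicate 3), DICER1 from -0.032 to 0.053, AGO3 from -0.052 to 0.0033 and AGO2 minus AGO3 from -0.030 to 0.0050. The cause was not tested beyond what fewer genes or arrays bring. Of the list genes called, MOV10 was lost with the replicate block (adjusted p = 0.0836), on median-centred arrays (0.0551) and on arrays centred on ribosomal protein genes (0.0592), TSN with the replicate block (0.0533) and XRN1 on median-centred arrays (0.0576).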

Other observations

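TDRD1, which encodes a tudor protein of the germline PIWI pathway, read 10.68, 10.72 and 10.70 after ETS2 siRNA and 10.63, 10.69 and 10.66 with control siRNA, well above the floor of 6.67, while PIWIL1, PIWIL2, PIWIL3 and PIWIL4 were below it; the gene was singled out after its values were seen. DICER1-AS1, an antisense neighbour of DICER1, read 5.94, 5.87 and 5.90 after ETS2 siRNA and 6.07, 6.01 and 5.93 with control siRNA, below the floor on all 6 arrays.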
